A study of Mus musculus with 130 samples.

Results

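Gpnmb, the gene of glycoprotein nonmetastatic melanoma protein B, was followed through liver RNA of mice fed different amounts of iron. It was taken by its symbol, matched to the identifier ENSMUSG00000029816, and is 1 gene of 35274 in the table of the diet study and 1 of 35711 in the table of the strain panel. Liver RNA of 130 male mice was sequenced. In the diet study, 15 C57BL/6J mice were fed chow, 50 ppm iron (labelled sufficient), 500 ppm iron (labelled elevated), 2% carbonyl iron (20000 ppm), or 2% carbonyl iron with cellulose as the fibre source, with 3 mice per diet. The panel comprised 115 mice of 114 strains, each given 4 weeks of chow and then 6 weeks of 2% carbonyl iron. Every strain is a single mouse apart from 129X1/SvJ with 2. Ages, and the weeks on each diet in the diet study, are not given in the sources used here. The panel holds 56 BXD strains, which are inbred lines bred from crosses of C57BL/6J and DBA/2J. By strain number they fall into 20 strains numbered 1 to 32, 7 numbered 33 to 42 and 29 numbered 43 to 100. The panel also holds both parents, 20 AXB/BXA, 4 BXH and 3 CXB strains and 29 other inbred strains.

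GPNMB is a transmembrane glycoprotein of lysosomes and the cell surface, found in macrophages, osteoclasts and pigment cells. Its outer part is shed by ADAM10, and it is known to bind syndecan-4, CD44 and integrins. Transcription factors of the MiT/TFE family, which drive lysosome genes, are known to activate it, and in diseased liver it is known as a marker of lipid-laden and scar-associated macrophages. DBA/2J is known to carry a premature stop codon in Gpnmb, one of the genes behind the pigmentary glaucoma of that strain.

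Gpnmb lies on the forward strand of chromosome 6, at chr6:49036546-49070929 of GRCm38, and is annotated as protein coding by GENCODE M21. Of its 5 annotated transcripts, 2 are protein coding, each with 11 exons and with lengths of 3701 and 2430 bases. These start at 49036615 and 49036677, and the start of the gene is that of a retained-intron transcript. No annotated gene overlaps it (0 genes). The stretch of 278 bases before the GENCODE start, at chr6:49036268-49036545 of GRCm38.p6 on the forward strand, is shown because the values below concern how much of this gene's RNA was present. It was taken from RefSeq's table of promoters, and the capitals mark an AP-1 motif.

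Gpnmb promoter: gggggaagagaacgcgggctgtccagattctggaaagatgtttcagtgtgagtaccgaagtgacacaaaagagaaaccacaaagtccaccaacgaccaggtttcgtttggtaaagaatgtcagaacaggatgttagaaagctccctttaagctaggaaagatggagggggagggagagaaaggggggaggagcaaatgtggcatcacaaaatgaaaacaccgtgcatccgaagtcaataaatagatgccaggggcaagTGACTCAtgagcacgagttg

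Both strands of the whole RefSeq window were searched for 5 motifs. The AP-1 motif TGACTCA occurred 1 time, starting 20 bases before the GENCODE start, which is 8 bases after the RefSeq start. Of 32851 promoters as long as the whole RefSeq window, 5.2% hold it. The E-box CACGTG (7.15% of promoters), the M-box TCATGTG (3.77%), the antioxidant response element TGACNNNGC (12.4%) and the PU.1 motif GAGGAAGT (3.2%) had 0 matches, which says only that these letters are not in this window. The AP-1 letters do not overlap a match of another motif, since none of the others matched.

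Libraries held 10.42 to 20.36 M counts (M, 1000000 counts) for the diets and 9.41 to 20.57 M for the panel. Levels are CPM, counts per M counts, after TMM scaling unless TPM is named, and changes are log2 ratios from edgeR's quasi-likelihood test. The standard error (SE) was worked out as the size of the change divided by the square root of that test's F statistic. A gene was called at a Benjamini-Hochberg adjusted p under 0.05 over all genes tested. The labels give no batch or date.

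In C57BL/6J liver, Gpnmb was close to the counting floor on chow and was higher on 2% iron than on chow. The labels give no iron dose for chow, so in contrasts with chow, iron and other differences between the diets cannot be told apart. On chow the 3 mice had 0.0943, 0.184 and 0.0728 CPM, from 1, 2 and 1 counts. On 50 ppm iron they had 0.482, 0.388 and 3.05 CPM. On 500 ppm iron they had 0.26, 1.95 and 1.23 CPM. In CPM all 3 chow mice lay below every mouse of the other diets. In TPM they did not, since the chow mouse with 2 counts had 0.215 TPM. That was above 50 ppm mice at 0.152 and 0.172 TPM and a 500 ppm mouse at 0.103 TPM. The 50 ppm and 500 ppm groups overlapped, with 1 high mouse among the first and 1 low mouse among the second. The 3 mice on 2% iron had 2.81, 1.85 and 6.22 CPM. The 3 mice on 2% iron with cellulose had 8.33, 5.99 and 10.3 CPM. The 2% iron diet and the 2% diet labelled with cellulose overlapped at 1 pair of values. The 2% iron mice also overlapped those on 50 ppm and 500 ppm iron.

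**Figure D1:**
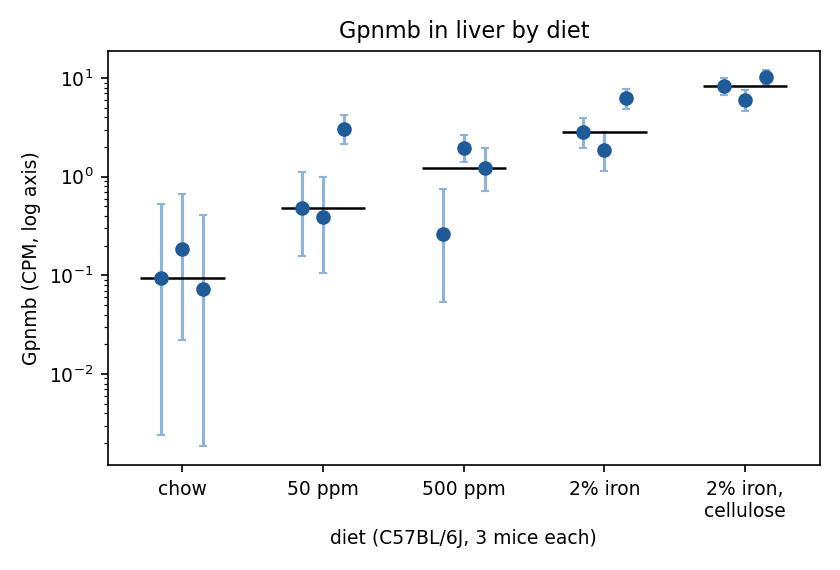
Gpnmb level (CPM, log axis) in each of 15 C57BL/6J mice by diet. Points are mice, thin bars are exact 95% binomial intervals that cover counting error only, and black lines are medians, which run from 0.0943 (chow) to 8.33 CPM (cellulose diet).

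Mean levels in CPM were 0.117 ± 0.0592 for chow, 1.31 ± 1.51 for 50 ppm, 1.15 ± 0.85 for 500 ppm, 3.63 ± 2.29 for 2% iron and 8.20 ± 2.15 for the cellulose diet (SD, n = 3 each). On the length-scaled TPM scale the medians were 0.0426, 0.172, 0.406, 1.38 and 2.96 in the same order. The highest 50 ppm mouse had 2.61 TPM, above the highest 2% iron mouse at 2.09 TPM. Gpnmb was thus a low-abundance transcript in whole liver on each diet.

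Gpnmb was higher on 2% iron than on chow, by 4.88 on the log2 scale (SE 0.995, edgeR adjusted p = 0.00356), in a comparison where 22.8% of 13560 genes were called. Because chow gave 4 counts in all, the summed counts set the size better: 128 counts against 4 gave a ratio of 32, with an exact 95% interval of 12.2 to 119 that covers counting error only. With limma on log2(TPM + 1) the change was 1.08 and was not called (adjusted p = 0.0794). Without any 1 of the 6 mice the edgeR change stayed between 4.24 and 5.30 and was called.

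Against 50 ppm iron, the rise of Gpnmb on 2% iron was not called. The change was 1.41 (SE 0.67, edgeR adjusted p = 0.176), where 15.7% of genes were called. Single mice on either side moved this value. Without the 50 ppm mouse at 3.05 CPM the change was 3.03 (edgeR adjusted p = 0.0209), and without the 2% iron mouse at 6.22 CPM it was 0.78 (edgeR adjusted p = 0.544). Against 500 ppm iron the change was 1.58 (SE 0.66, edgeR adjusted p = 0.139), where 11.3% of genes were called, and it was 0.95 without the same 2% iron mouse (edgeR adjusted p = 0.482).

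No difference in Gpnmb between the 2 lower doses was called. The difference of 500 ppm from 50 ppm iron was -0.16 (SE 0.72, edgeR adjusted p = 1), in a comparison where 0.0% of genes were called. In that comparison edgeR and DESeq2 each called 0 genes, and 428 had an unadjusted edgeR p under 0.05. Without the high 50 ppm mouse the difference was 1.46, and without the low 500 ppm mouse it was 0.24, neither of them called.

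Chow and 50 ppm iron differed by -3.46 (SE 1.12, edgeR adjusted p = 0.28; DESeq2 adjusted p = 0.0552), where 0.391% of genes were called. The summed counts of 46 on 50 ppm and 4 on chow gave a ratio of 12.3, with a counting interval of 4.5 to 47.2. Of the 46 counts, 37 came from the high 50 ppm mouse, and without it the edgeR difference was -1.84 (adjusted p = 0.757). The 2% diet labelled with cellulose differed by 1.17 from the other 2% iron diet (SE 0.59, edgeR adjusted p = 0.419), where 0.0811% of genes were called. Without the 2% iron mouse at 6.22 CPM the difference was 1.80 (edgeR adjusted p = 0.36). The labels name no fibre source for the other 2% iron diet, so an effect of fibre was not tested. When mice on the cellulose diet stood in for the 2% mice, a choice made after seeing the data, Gpnmb was higher than on 50 ppm by 2.59 (edgeR adjusted p = 0.00939) and than on 500 ppm by 2.75 (edgeR adjusted p = 0.00721). These contrasts share mice and are not independent of each other.

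Genes of the phagocyte program, to which Gpnmb is usually assigned, rose in part. Against chow, 11 of 20 list genes rose on 2% iron and 0 fell, with a median change of 1.12 beside 0.01 over all genes. Of all genes tested in that comparison, 11.9% were called higher and 10.9% lower. Against 50 ppm iron, 8 of 20 rose and 0 fell, with a median of 0.62, where 8.52% of all genes were called higher and 7.17% lower. Of the 4 most abundant members, the cathepsin genes Ctsb and Ctsd rose against chow by 0.45 (SE 0.11) and 0.72 (SE 0.14). Apoe, an apolipoprotein that hepatocytes also make, and Plin2, which coats lipid droplets, had changes of -0.00 and -0.14 that were not called. Cd68, a lysosomal membrane glycoprotein of macrophages, rose by 1.94 (SE 0.27), and Lgals3, a galectin, by 2.30 (SE 0.44). Itgax, the integrin CD11c, rose by 2.28 (SE 0.37), and Mmp12, macrophage elastase, by 1.17 (SE 0.35). Trem2 and Spp1, of the same list, had changes of -0.07 and 0.46 that were not called. Against 50 ppm iron Cd68 at 1.62 and Lgals3 at 1.82 were called. Itgax at 1.02 and Mmp12 at 0.35 were not, nor were Trem2 at 0.46 and Spp1 at -0.45.

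**Figure D2:**
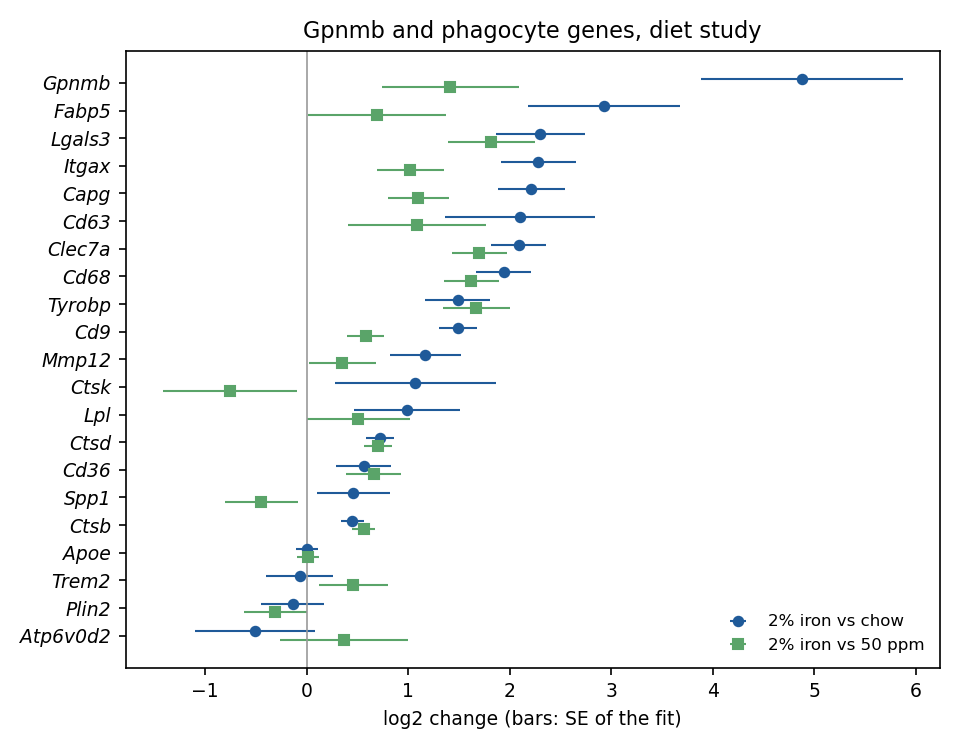
Log2 change of Gpnmb and the 20 phagocyte genes on 2% iron against chow (circles) and against 50 ppm iron (squares), with bars of 1 SE. Gpnmb has the largest change against chow, 4.88, and also a wide SE of 0.995, from 4 counts on chow.

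Markers of Kupffer cells, the resident macrophages of liver, rose on 2% iron in the diet study, where Gpnmb was called only against chow. On 2% iron 14 of 15 rose against chow and 14 of 15 against 50 ppm iron, with medians of 1.67 and 1.62, beside 11.9% and 8.52% of all genes called higher. Slc40a1, the iron exporter ferroportin, rose against chow by 1.83 (SE 0.16), and Clec4f, a lectin particular to Kupffer cells, by 1.73 (SE 0.21). Cd5l rose by 1.88 (SE 0.32) and Csf1r, the receptor for macrophage colony stimulating factor, by 1.43 (SE 0.19). The summed level of the 15 markers was 348 to 424 CPM on chow, a median of 413 and at most 484 on 50 ppm, 366 to 621 on 500 ppm, 1180 to 1320 on 2% iron and 1300 to 1770 with cellulose. Chow and 50 ppm overlapped in this sum. In whole liver, more cells of a type and more RNA per cell cannot be told apart, and the part of the Kupffer markers in the Gpnmb values was not tested.

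Among the genes of proteins that meet GPNMB, 6 of 11 tested rose on 2% iron against chow and 1 fell, where 11.9% of all genes were called higher and 10.9% lower; the lists that follow are read against the same shares. Sdc4 at 0.27, Itgb1 at 0.13 and Egfr at -0.35 were not called. Of 20 MiT/TFE and lysosome genes, 4 rose and 1 fell: Ctsl, a cathepsin, rose by 0.44 (SE 0.15) and Lamp2, a lysosomal membrane protein, fell by 0.33 (SE 0.10), while Lamp1 at -0.09 and Sqstm1 at -0.10 were not called. These 5 of 20 are close to the 22.8% of all genes called in that comparison. Of 10 stellate cell and fibrosis genes 7 rose against chow and 0 against 50 ppm iron. Of 9 recruited myeloid genes 3 rose against chow. Of the 8 hepatocyte genes 2 rose and 2 fell against chow. Of 10 iron-response genes 5 rose against chow, among them Hamp, the gene of hepcidin, by 2.34 (SE 0.31) and Ftl1, ferritin light chain, by 1.04 (SE 0.12). Of the melanocyte list 2 of 8 genes passed the filter, 0 rose and 1 fell against chow, and the summed level was 4.49 to 12.3 CPM over the 15 mice.

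Over the 15 diet-study mice, Tmem65 (Spearman's rho 0.96), Tagln2 (0.95), Nxt2 (-0.95), Lmf1 (-0.95) and Nat8 (-0.95) were most like Gpnmb. The points share the diet groups, so these are descriptions.

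Across the panel, where every mouse ate 2% iron, Gpnmb ranged from 0.257 to 42.9 CPM over 114 strains with a median of 2.80 CPM (0.0737 to 15.1 TPM). That is a range of 167-fold. The C57BL/6J mouse had 5.30 CPM from 61 counts and the DBA/2J mouse 0.379 CPM from 4 counts, a ratio of 14 between single mice with no replicate check. The DBA/2J mouse was also below the strain median in 17 of 20 phagocyte genes and 14 of 15 Kupffer markers. C57BL/6J was below it in 4 and 1. The 2 129X1/SvJ mice, the only strain with a repeat, had 1.08 and 2.50 CPM and differed by 2.31-fold. BALB/cJ at 38.9 CPM and its substrain BALB/cByJ at 3.26 CPM differed by 11.9-fold.

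The lowest, median and highest values were 0.405, 2.95 and 34.4 CPM in BXD strains 1 to 32. They were 0.444, 2.44 and 6.59 in strains 33 to 42, and 0.257, 4.71 and 42.9 in strains 43 to 100. They were 0.997, 2.90 and 23.3 in AXB/BXA strains and 0.455, 2.48 and 41.6 in the other inbred strains. The 4 BXH strains ran from 1.39 to 5.39 CPM and the 3 CXB strains from 0.816 to 2.23 CPM. All of these ranges overlapped.

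The lowest strains of the first set were BXD13/TyJ (0.405 CPM), BXD14/TyJ (0.486) and BXD27/TyJ (0.942), and the highest were BXD21/TyJ (14.6), BXD12/TyJ (15.9) and BXD32/TyJ (34.4). Of strains 33 to 42 the lowest were BXD40/TyJ (0.444), BXD39/TyJ (0.478) and BXD42/TyJ (1.43), and the highest BXD34/TyJ (2.73), BXD36/TyJ (5.77) and BXD38/TyJ (6.59). Of strains 43 to 100 the lowest were BXD50/RwwJ (0.257), BXD44/RwwJ (0.306) and BXD62/RwwJ (0.412), and the highest BXD87/RwwJ (23.7), BXD60/RwwJ (36.2) and BXD85/RwwJ (42.9). DBA/2J, at 0.379 CPM, lay within the range of the last set and below the lowest strain of the first. C57BL/6J lay above the median of each of the 3 sets.

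**Figure D3:**
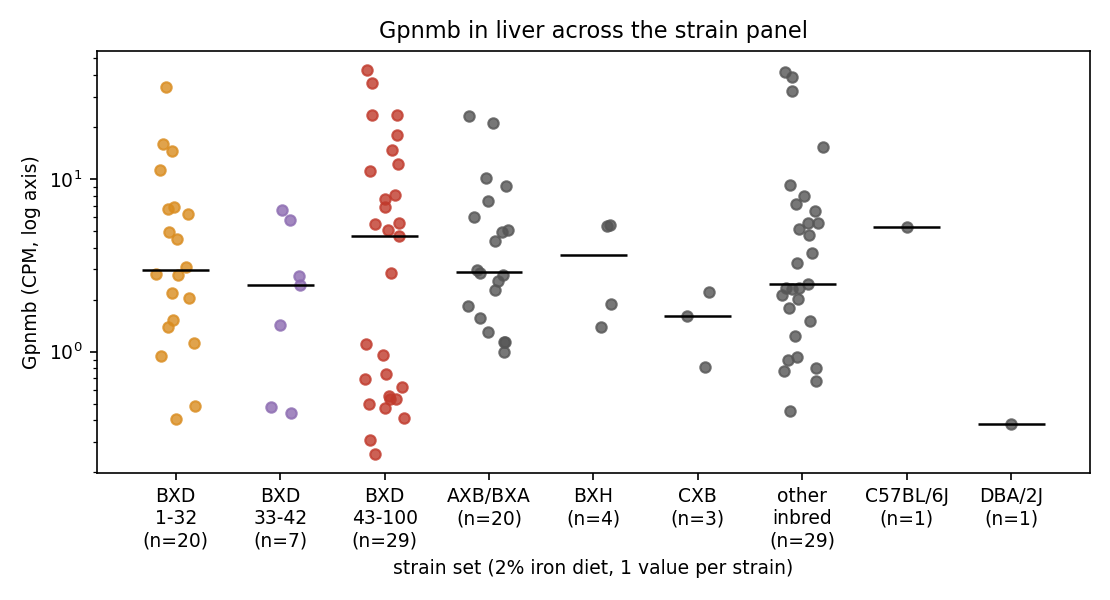
Gpnmb level (CPM, log axis) in each strain of the panel by strain set, with 1 value per strain and black lines at the medians. In BXD strains 43 to 100 no strain lies between 1.11 and 2.84 CPM.

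No test called a difference in Gpnmb level between the BXD sets. Strains 43 to 100 against 1 to 32 differed by 0.38 (SE 0.50, edgeR adjusted p = 0.891), in a comparison where 0.1% of 14937 genes were called. A permutation test on mean log2 CPM, where the difference was -0.17, gave p = 0.773. Strains 33 to 42 against 1 to 32 differed by -1.15 (SE 0.83, edgeR adjusted p = 0.996), where 0.0% of genes were called. In that comparison edgeR called 0 genes, DESeq2 called 8, and 686 had an unadjusted edgeR p under 0.05. Strains 43 to 100 against 33 to 42 differed by 1.53 (SE 0.82, edgeR adjusted p = 0.815), where 0.00669% were called. Against AXB/BXA strains, strains 1 to 32 differed by 0.14 (SE 0.54, edgeR adjusted p = 0.932; 5.37% of genes called) and strains 43 to 100 by 0.52 (SE 0.50, edgeR adjusted p = 0.618; 5.99% called). These misses do not show that the sets are alike.

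At the cutoffs given in this paragraph, no difference in the share of strains with low Gpnmb was called either. The largest gap over all BXD strains lay between 3.08 and 4.5 CPM, with 30 strains below it and 26 above. It is above the panel median of 2.8 CPM, so low there means below a point near the middle of the BXD strains. Cut at that gap, 11 of 20 strains numbered 1 to 32 and 14 of 29 numbered 43 to 100 were low (Fisher's exact p = 0.773). Below 0.693 CPM, 25% of the non-BXD median, were 2 of 20 and 9 of 29 (Fisher's exact p = 0.162). Below 1.39 CPM, 50% of that median, were 4 of 20 and 13 of 29 (Fisher's exact p = 0.126). Other planned cutoffs, the largest gap in log2(TPM + 1) and the CPM gap without BXD65, gave Fisher's exact p of 0.496 and 0.777. A gap in the distance from the phagocyte line, described below, was also tested, as was a further limit on that distance. Both were picked after seeing the values, and their p-values are not given.

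The spread of Gpnmb in strains 43 to 100 is described here without a p, because it was noticed in these values. Of the 29 strains, 13 lay at or below 1.11 CPM and 16 at or above 2.84 CPM, with none between. A fit of a 2-part mixture, by the rule used for separate clusters, called separate clusters in strains 43 to 100. It called none in strains 1 to 32, strains 33 to 42, all BXD strains or non-BXD strains. In strains 33 to 42 the 2 parts were nearly as far apart (Ashman's D, a measure of separation, 4.46 beside 4.65). The rule also asks for a gain in fit (BIC) and a minimum size of the smaller part. With 7 strains these were 4.9 and 2, beside 13.2 and 13, so that miss does not show a single group. Because these strains form separate clusters, no pooled correlation with a p is given for them. The SD of log2 CPM (prior count 2) was 2.17 in strains 43 to 100 and 1.58 in strains 1 to 32.

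Gpnmb was also set against the other phagocyte genes. A line was fitted in the 57 non-BXD strains, for log2 Gpnmb on the mean log2 CPM of the 19 phagocyte genes that averaged 1 CPM or more, and had a slope of 2.85. The SD of the distance from that line was 0.84 in the non-BXD strains, 0.85 in BXD strains 1 to 32, 1.95 in strains 33 to 42 and 1.84 in strains 43 to 100. More than 1 log2 unit below the line lay 5 of 57 non-BXD strains, 1 of 20, 3 of 7 and 13 of 29 strains of the BXD sets in the same order. DBA/2J lay 1.56 below it (-1.56) and C57BL/6J at -0.61. This limit was chosen after the ratio of Gpnmb to phagocyte genes had been seen in each strain, so no p is given for the counts. The mean distance of strains 43 to 100 from strains 1 to 32, also added after seeing the data, was -0.69. A p cannot decide here whether the sets differ, because the measure was picked from the same values. The counts, the spread and the mean distance were each tested, and those p-values are not given.

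**Figure D4:**
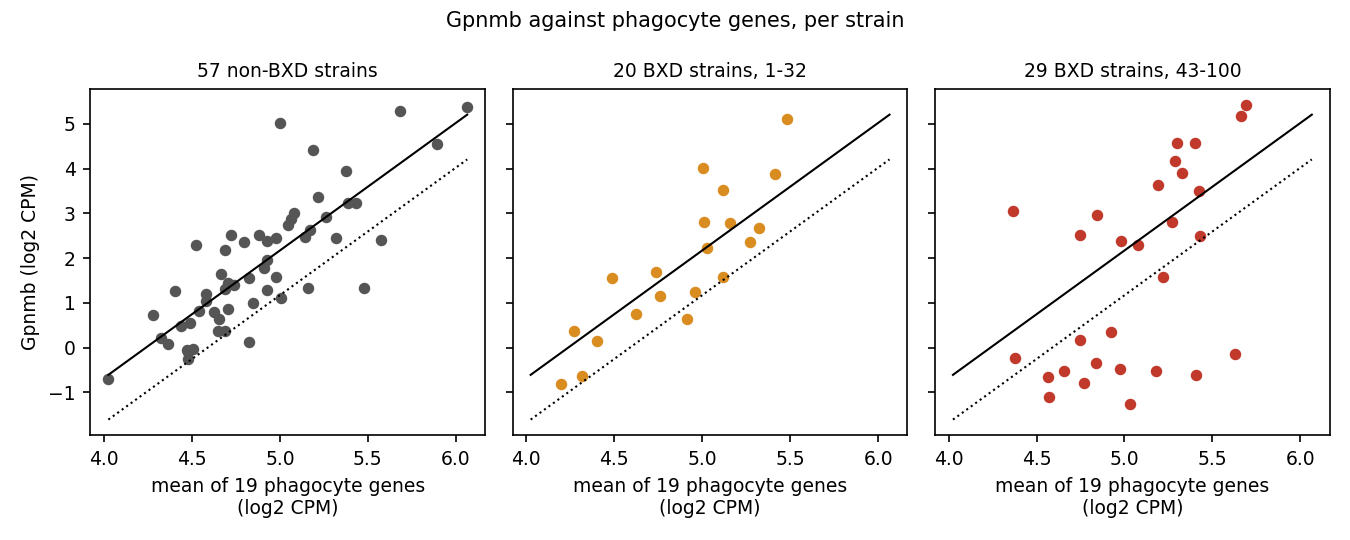
Gpnmb (log2 CPM) against the mean of 19 phagocyte genes (log2 CPM) per strain, in the 57 non-BXD strains, BXD strains 1 to 32 and BXD strains 43 to 100. The solid line was fitted in the non-BXD strains and the dotted line lies 1 log2 unit below it, with 13 of 29 strains of the last panel under it.

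Over the 57 non-BXD strains, Gpnmb varied with phagocyte genes. By Pearson's r of log2 CPM, 1973 of 12912 genes (15.3%) were called by a permutation test with adjustment over all genes, 871 positive (6.75%) and 1102 negative (8.53%), and 1016 were called by Spearman's rho. On log2(TPM + 1) 3508 were called, 3344 positive and 164 negative. Of the 19 phagocyte genes tested, 14 were called positive and 0 negative, with a median r of 0.47 beside -0.01 over all genes. Of 15 Kupffer markers 5 were called positive, with a median of 0.23, and of 20 MiT/TFE and lysosome genes 5 were called positive and 1 negative. Of 11 partner genes 1 was called positive, as were 1 of 9 recruited myeloid and 2 of 10 stellate cell genes, with 0 negative in each. Of 8 hepatocyte genes 2 were called negative and 0 positive, with a median r of -0.23. Of 10 iron-response genes 1 was called negative and 0 positive. That gene was Hamp, with r = -0.462 (permutation adjusted p = 0.0121) and rho = -0.45 (permutation adjusted p = 0.019). In the diet study Hamp rose on 2% iron against chow, as Gpnmb did. Among the non-BXD strains, the r of Hamp was -0.451 without KK/HlJ and BALB/cJ. It was -0.558 within AXB/BXA and -0.541 within the other inbred strains, neither of them called (permutation adjusted p = 0.155 and 0.0774). Over the BXD strains Hamp had the opposite sign, with a rho of 0.15. Its rho was 0.23 in the BXD set with the lowest strain numbers and 0.2 in that with the highest. Over the diet-study mice its rho was 0.76. The BXD and diet-study values are descriptions. Of the 2 melanocyte genes tested 0 were called. Related strains are not independent, which a permutation over strains does not take into account.

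Mmp12 was most like Gpnmb (r = 0.773, permutation adjusted p = 0.00248, rho = 0.80 with adjusted p = 0.003, where unadjusted p-values of 1e-05 are the smallest that the permutations can give). Its r was 0.826 within AXB/BXA strains, 0.762 within the other inbred strains and 0.716 without KK/HlJ and BALB/cJ, the 2 strains farthest from the median of Gpnmb. Lgals3 (r = 0.741, rho = 0.70), Itgax (r = 0.689, rho = 0.69), Gpr137b, a lysosomal membrane protein (r = 0.626, rho = 0.68), and Cd68 (r = 0.672, rho = 0.67) came next and had the same adjusted permutation p of 0.00248. Without the same 2 strains their r was 0.695, 0.628, 0.682 and 0.645. Within AXB/BXA strains it was 0.899, 0.752, 0.878 and 0.795, and within the other inbred strains 0.689, 0.701, 0.528 and 0.622. Clec7a, the beta-glucan receptor, had a rho of 0.72 but is left out of this order because the annotation lists it as a polymorphic pseudogene; it was named after its value was seen.

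Over the 56 BXD strains the genes most like Gpnmb were Mmp12 (rho 0.68), Rasa2 (0.56), Sat1 (0.56), Cks1b (-0.55) and Apobec1 (0.55). These are given as descriptions, since the last set forms clusters. For Mmp12 the value was 0.76 within strains 43 to 100.

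Of the 22 genes tested within 1 Mb of Gpnmb, 2 had an absolute rho of at least 0.5 in strains 43 to 100, a size that 0.79% of 12912 genes reached there. They were Ccdc126 (-0.64) and Atp6v0e2 (-0.61), the latter a subunit of the lysosomal proton pump. In strains 1 to 32 it was 1 of 22, Zfp467 (-0.60), where 11.7% of genes reached it. In strains 1 to 32 Ccdc126 had a rho of -0.36 and Atp6v0e2 of -0.07. DBA/2J had more of both than C57BL/6J, with 3.41 against 2.17 CPM for Ccdc126 and 4.54 against 1.65 CPM for Atp6v0e2, in single mice. The 2 nearest genes tested on either side had rho of -0.08 (Tmem176a), -0.16 (Tmem176b), -0.31 (Malsu1) and 0.25 (Tra2a) in strains 43 to 100. Neighbours share inherited segments in inbred lines, and no p is given.

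**Figure D5:**
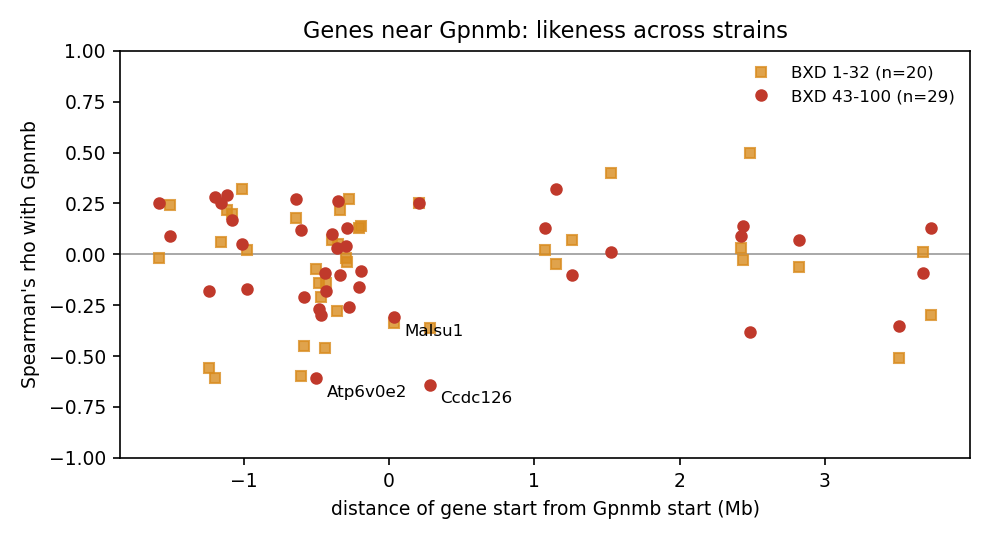
Spearman's rho with Gpnmb of genes near it, by distance of gene starts in Mb, in BXD strains 1 to 32 (squares, 20 strains) and 43 to 100 (circles, 29 strains). Ccdc126 at -0.64 and Atp6v0e2 at -0.61 are the lowest circles.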

How the data were processed

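The authors deposited expected counts per gene and TPM for the same mice, with kallisto 0.46 and mm10 named in the submitters' processing notes. How transcripts were summed to genes and which strand was counted are not given in the sources used here. The deposited expected counts (26.5% and 27.4% of values not whole) were rounded, as the design provided for. Tests used edgeR 4.0.16 (TMM, filterByExpr) in R 4.3.3, with all diets in 1 fit. BXD, AXB/BXA and the other inbred strains were in another. DESeq2 1.42.0 and limma 3.58.1 on log2(TPM + 1) or log2(TPM + 0.1) were alternatives. Correlations used log2 CPM with a prior count of 2 and 100000 permutations. The 2 studies came in separate tables and were not tested together. Where nothing says that samples are separate litters, p-values measure the spread between these mice. Named genes were Gpnmb, the 4 most abundant genes of each list (1 of them is not reported here), the 5 most alike by rho over diet mice, non-BXD and BXD strains, and near neighbours; strains were the parents and the 3 lowest and highest of each BXD set. The gene, lists and tests were chosen with earlier results of these data known. A count of strains more than 1 log2 unit below the phagocyte line and a comparison of spread between BXD sets were also tested once after the values had been seen. So were the mean distance from that line and a cutoff at the largest gap in that distance. Their p-values are not given, because the measures were picked from the same values. All tests were two-sided. The gene fits and correlations were tested on simulated data.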

Additional observations from a re-analysis of the deposited data

How the results depend on the processing

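No paired analysis was possible because the labels give no replicate numbers. The rise of Gpnmb on 2% iron over chow was lost with limma on log2(TPM + 1) (1.08) and called under every other setting tried. On 2% iron against 50 ppm it became called with the cellulose mice (2.59), and leaving out 1 mouse moved it between 0.78 and 3.03, called only without the high 50 ppm mouse. Against 500 ppm it was called with the cellulose mice (2.75) and ran from 0.95 to 2.23 without 1 mouse. The difference of 500 from 50 ppm changed sign, from -0.82 to 1.46 without 1 mouse. Also without 1 mouse, chow against 50 ppm ran from -3.90 to -1.84, and cellulose against 2% iron from 0.86 to 1.80. With limma, chow against 50 ppm was -0.64 on log2(TPM + 1) and -1.68 on log2(TPM + 0.1). Chow against 50 ppm gave no Gpnmb value when those groups were fitted alone, since the filter removed it. Between BXD sets the sign depended on the scale: strains 43 to 100 against 1 to 32 gave -0.15 on log2(TPM + 0.1) and 0.06 by permutation on log2(TPM + 1). Against AXB/BXA, strains 1 to 32 gave -0.05 on log2(TPM + 1) and -0.13 on log2(TPM + 0.1), and strains 43 to 100 gave -0.28 on log2(TPM + 0.1). The share of low strains in strains 43 to 100 minus that in strains 1 to 32 was -6.72 percentage points at the main cutoff and 21, 24.8 and 13.8 at 25% of the non-BXD median, 50% of it and the gap in the residual. None of the planned differences was called, and the cause was not tested. The gap in the residual was added after the values had been seen, and its p is not given. Correlated genes rose from 1973 to 3508 on log2(TPM + 1). Genes called over all settings ran from 1003 to 4026 for 2% iron against 50 ppm, 788 to 3505 against 500 ppm, 1945 to 4748 against chow, 4 to 139 for chow against 50 ppm and 0 to 222 for cellulose. They ran from 6 to 34, 0 to 8 and 0 to 9 between BXD sets, and against AXB/BXA from 407 to 942 for strains 1 to 32, and for strains 43 to 100 they came to 496 on log2(TPM + 0.1) and at most 1278. Counts of 1 to 5 on chow and in the lowest strains limit the size of any fold.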
